A study of Mus musculus with 2 samples.

Results

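The genes described here are 10 genes of antigen presentation and of Langerhans cell maturation, chosen by symbol among the 27998 genes listed in each count matrix. They are the class II chain genes H2-Aa, H2-Ab1 and H2-Eb1, the invariant chain gene Cd74, the class I heavy chain genes H2-K1 and H2-D1, the class I light chain gene B2m, the langerin gene Cd207, the adhesion gene Epcam and the class II transactivator gene Ciita. All 10 were found in both matrices. The question was where in the newborn epidermis these genes were expressed, in Langerhans cells against keratinocytes (KCs), T cells and melanocytes.

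Class II molecules are pairs of an alpha and a beta chain that show peptides from engulfed proteins to CD4+ T cells. H2-Aa and H2-Ab1 encode the I-A pair, and H2-Eb1 encodes the beta chain of I-E, whose alpha chain is not made in mice of the b haplotype such as C57BL/6. The invariant chain, CD74, holds the peptide groove closed until the molecule reaches the endosome, where H2-DM exchanges the last fragment of it for a peptide. CIITA switches the class II genes on without binding DNA itself, through the factors RFX and NF-Y. Class I molecules show peptides from inside the cell to CD8+ T cells, are found on nearly all nucleated cells, and need B2m to reach the surface. Langerhans cells are the dendritic cells of the epidermis. Their precursors, which resemble macrophages, seed the skin before birth and gain langerin, class II molecules and EPCAM as they mature. EPCAM is also an adhesion molecule of epithelial cells.

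The data are single-cell RNA sequencing (scRNA-seq) libraries of the epidermis of 2 male Chrm3 KO mice of the C57BL/6J strain at postnatal day 0, 1 library per mouse. Chrm3 encodes the M3 muscarinic acetylcholine receptor, and the knockout is carried by all cells of both mice. Chrm3 itself had 13 and 19 UMIs in the kept cells, which checks little, since no WT library was analysed here and 3′ reads can come from outside a deleted part. No effect of the genotype was tested. Dermis and dead cells were removed before the libraries were made, and Langerhans cells were not sorted. A fibroblast-like class of 40 cells in mouse 1 and 68 in mouse 2 was still found among the kept cells.

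After filtering, 7607 cells of mouse 1 and 11881 of mouse 2 were kept, with medians of 10480 and 10577 unique molecular identifiers (UMIs, each counting 1 captured RNA molecule). Of the barcodes, 34 occurred in both libraries. Cells were clustered without the 10 genes or the pathway genes below, and clusters were named by marker genes, so class names and shares are rebuilt and can differ from those of the study. The Langerhans-like class held 145 cells of mouse 1 and 193 of mouse 2, with medians of 9639 and 9802 UMIs. Its share of the kept cells was 1.91% in mouse 1 (1.61 to 2.24, exact binomial 95% interval) and 1.62% in mouse 2 (1.4 to 1.87). The paper reports lower shares of Langerhans cells in both KO mice, below these intervals. Which cells make the difference was not tested. The T cell-like class held 52 and 38 cells and the melanocyte-like class 437 and 727. Among KCs, 2420 and 4132 cells were basal-like, 627 and 886 suprabasal-like, and 1091 and 1606 hair follicle-like, while 2678 and 4062 stayed unnamed.

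The Langerhans-like class was named by its markers, so their levels describe the class and do not check its label. All 13 markers listed for it were detected in both mice, with summed levels of 14128 and 16077 CPM (UMIs of a gene in 1000000 UMIs of the class in that mouse). The summed level was between 5.56 and 19.1 CPM in the KC and melanocyte-like classes and 2253 and 2180 CPM in the T cell-like class, where Csf1r, Lyz2, C1qc and Mrc1 were at 0. In Langerhans-like cells the 8 T cell markers in the files summed to 13.3 and 10.2 CPM, melanocyte markers to 18.3 and 112 CPM, and 6 mast cell markers were at 0. Tyrobp, C1qb, C1qa, C1qc and Fcer1g led the class, genes that macrophages express too. Cd207, the defining marker of mature Langerhans cells, had 6 UMIs in 3 of the 145 cells of mouse 1. It had none in the 193 cells of mouse 2, which allows a share of up to 1.55% of cells with a UMI. The class is therefore called Langerhans-like here, and the low Cd207 level is part of its description. The markers listed for it do not separate Langerhans cells and their precursors from macrophages of the dermis. Whether some of its cells are such macrophages was not tested.

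On GRCm38, H2-K1 (ENSMUSG00000061232) lies at chr17:33996017-34000347, followed on the same chromosome by H2-Ab1 (ENSMUSG00000073421) at 34257689-34269419 and H2-Aa (ENSMUSG00000036594) at 34282744-34287823. H2-Eb1 (ENSMUSG00000060586) follows at 34305867-34316674 and H2-D1 (ENSMUSG00000073411) at 35262730-35267499. Epcam (ENSMUSG00000045394) is also on chromosome 17, at 87635979-87651129, outside this cluster. B2m (ENSMUSG00000060802) is at chr2:122147686-122153083, Cd207 (ENSMUSG00000034783) at chr6:83671215-83677857 and Ciita (ENSMUSG00000022504) at chr16:10480059-10528418. In GENCODE M21, Gm20513 overlaps H2-Eb1 on the opposite strand, Patl2 overlaps B2m and Dexi overlaps Ciita. H2-K1, H2-D1 and the H2-Q and H2-T genes are close copies of each other, so how reads were split among them is uncertain.

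The promoters of the genes that follow are shown because class II and class I genes were spread differently over the classes of cells in the results below. They are RefSeq sequences on GRCm38.p6, from 180 bases before the transcription start to 10 after it, read in the direction of transcription. A promoter was given for 7 of the 10 genes, and H2-Ab1, Cd74 and Ciita had no entry. In the class II set, capitals mark the Y box, GATTGG, which NF-Y binds, and the core of the X1 box, ACNGATG, which lies in the RFX site, on either strand. H2-DMb1, a chain of the peptide exchanger H2-DM, is added as another class II pathway gene of the Langerhans-like cells that holds both boxes. Only matches that lie wholly within the printed window are in capitals. The windows are chr17:34287814-34288003 on the minus strand, chr17:34305687-34305876 on the plus strand and chr17:34153011-34153200 on the plus strand.
H2-Aa: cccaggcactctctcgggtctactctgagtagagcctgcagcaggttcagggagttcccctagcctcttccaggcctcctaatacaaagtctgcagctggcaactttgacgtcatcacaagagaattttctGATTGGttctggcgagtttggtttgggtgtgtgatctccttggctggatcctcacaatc
H2-Eb1: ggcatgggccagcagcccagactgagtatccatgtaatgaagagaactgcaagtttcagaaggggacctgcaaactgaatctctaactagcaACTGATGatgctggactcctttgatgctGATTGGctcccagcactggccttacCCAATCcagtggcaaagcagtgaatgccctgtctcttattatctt
H2-DMb1: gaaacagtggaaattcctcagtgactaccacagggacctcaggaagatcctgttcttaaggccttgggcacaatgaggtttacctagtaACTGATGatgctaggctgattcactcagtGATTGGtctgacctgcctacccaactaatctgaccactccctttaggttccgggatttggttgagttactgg

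H2-Aa had the Y box at position -49 from the start and no exact match to ACNGATG within this window. A variant of the X1 box would be missed, so the box is not shown to be absent. H2-Eb1 had the X1 core at -88 and the Y box at -60, and H2-DMb1 had them at -91 and -62. Of all 32851 promoters, taken as windows of 300 bases, 16.1% held GATTGG and 9.85% held ACNGATG. The 2 together, on the same strand with 21 or 22 bases between them, occurred in 8 promoters (0.0244%). These were H2-Eb1, H2-Eb2, H2-DMb1, H2-DMb2, BC051142, Gm16958, Gm52728 and Scaper. The spacing was taken from these genes, so the count is a description.

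In the class I set, capitals mark in addition a kappaB site, GGGANTCCC, which NF-kappaB binds, and an interferon-stimulated response element, GAAANNGAA, which interferon regulatory factors bind. The windows are chr17:34000338-34000527 on the minus strand for the first of 2 listed starts of H2-K1, chr17:35262914-35263103 on the plus strand and chr2:122147507-122147696 on the plus strand.
H2-K1: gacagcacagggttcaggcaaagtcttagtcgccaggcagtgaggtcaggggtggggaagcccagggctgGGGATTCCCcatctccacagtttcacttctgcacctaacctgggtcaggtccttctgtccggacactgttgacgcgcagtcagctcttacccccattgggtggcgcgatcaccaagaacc
H2-D1: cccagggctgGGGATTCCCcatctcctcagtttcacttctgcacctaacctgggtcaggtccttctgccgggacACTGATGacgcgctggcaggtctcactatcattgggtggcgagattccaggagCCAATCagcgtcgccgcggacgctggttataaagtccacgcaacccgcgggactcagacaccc
B2m: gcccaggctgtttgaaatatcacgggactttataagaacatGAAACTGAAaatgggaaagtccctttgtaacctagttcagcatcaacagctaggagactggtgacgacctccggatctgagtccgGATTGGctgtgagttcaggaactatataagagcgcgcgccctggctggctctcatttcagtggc

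The heavy chain genes shared the kappaB site, at -110 in H2-K1 and -170 in H2-D1, which reads GGGATTCCC in both. It occurred in 0.767% of all promoters. B2m had the interferon-stimulated response element at -139, found in 8.56% of all promoters, and the Y box at -54. H2-D1 also held the X1 core at -106 and the Y box on the opposite strand at -53. The 300-base windows of Cd207 and Epcam held no exact match to these 4 motifs. Variants of a site would be missed, so an unmarked site is not shown to be absent from any of these promoters.

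The 3 class II chain genes and Cd74 had most of their UMIs in the Langerhans-like class. H2-Aa, the I-A alpha chain gene, was at 1990 CPM in mouse 1 and 1105 CPM in mouse 2. H2-Ab1, the I-A beta chain gene, was at 2150 and 1262 CPM, and H2-Eb1 at 1451 and 839 CPM. Cd74 (ENSMUSG00000024610, on chromosome 18) had the most UMIs of the 10 genes in these cells, at 8260 and 4989 CPM. For each of the 4, mouse 1 was higher, and both mice were above every class of KCs and the melanocyte-like class.

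In basal-like cells H2-Aa was at 0.454 and 0.141 CPM, H2-Eb1 at 0.629 and 0.422 CPM, and Cd74 at 1.22 and 1.18 CPM. Of all H2-Aa UMIs in the kept cells, 96.6% in mouse 1 and 98.7% in mouse 2 lay in Langerhans-like cells. For Cd74 these shares were 96.3% and 97.3%, and for H2-Eb1 94.6% and 95.7%. H2-Ab1 had lower shares of 83.4% and 76.5%, and 14.2% and 23.1% of its UMIs lay in KCs.

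Ciita was at 14.6 CPM (23 UMIs, 95% exact Poisson interval 9.22 to 21.8) and 9.76 CPM (21 UMIs, 6.04 to 14.9) in Langerhans-like cells. It had 5 UMIs over both mice in basal-like cells, 1 in hair follicle-like cells and none in suprabasal-like cells. The level in Langerhans-like cells was 185-fold that in basal-like cells (95% counting interval 73.5 to 598) and at least 105-fold that in suprabasal-like cells, taking 3 UMIs over the group as the limit of a count of 0. These intervals and limits cover counting error only.

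**Figure D1:**
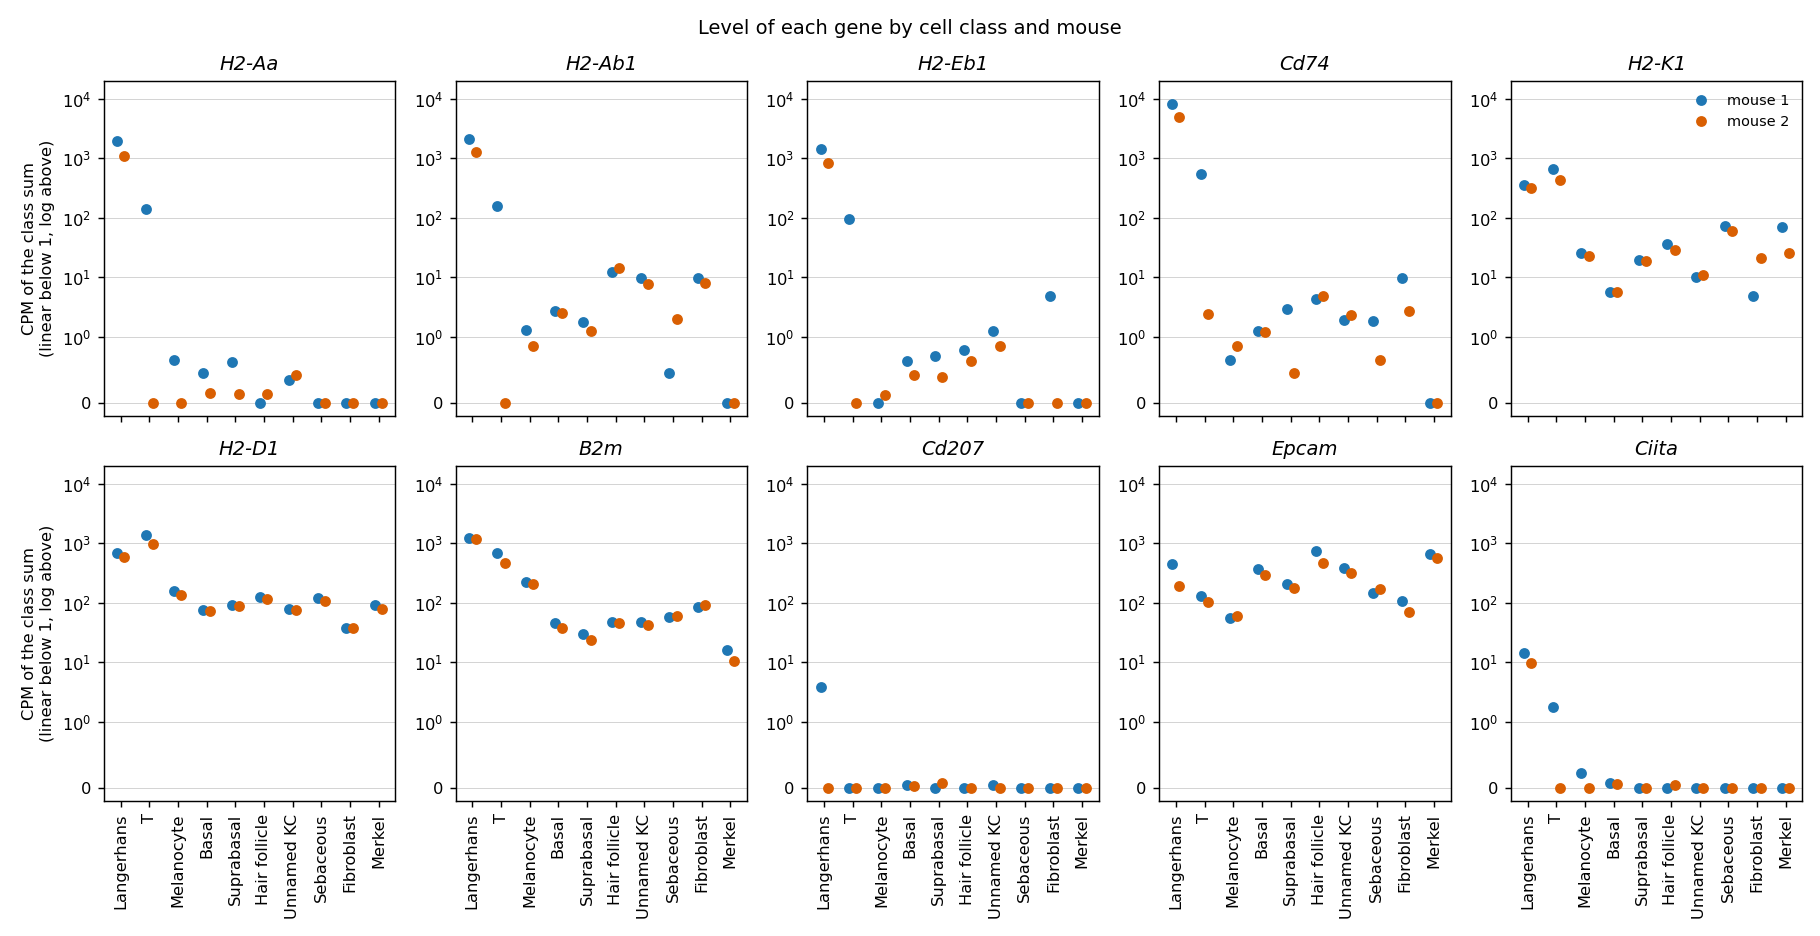
Level of each of the 10 genes (CPM of the class sum, linear below 1 and log above) in 10 cell classes, 1 point per mouse. The class II genes, Cd74 and Ciita stand highest in Langerhans-like cells, H2-K1 and H2-D1 in T cell-like cells, and Epcam is spread over KCs, Merkel-like and Langerhans-like cells.

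Class I genes were found in every class, and their order differed from that of class II. B2m was at 1235 and 1190 CPM in Langerhans-like cells, 694 and 472 in T cell-like cells, and 224 and 209 in melanocyte-like cells. In basal-like, suprabasal-like and hair follicle-like cells B2m lay between 24 and 46.7 CPM. So B2m fell in the order Langerhans-like, T cell-like, melanocyte-like and KC, with no overlap of the mice between neighbours. H2-D1 was highest in T cell-like cells, at 1374 and 985 CPM, with 677 and 599 in Langerhans-like cells and 160 and 133 in melanocyte-like cells. H2-K1 was at 667 and 426 CPM in T cell-like cells and 356 and 317 in Langerhans-like cells, which did not overlap either. In basal-like cells H2-D1 was at 76.2 and 72.5 CPM, and H2-K1 at 5.52 and 5.58 CPM, the lowest H2-K1 level of the named KC classes.

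Epcam was the only member with its highest levels outside the immune classes. It was at 732 and 470 CPM in hair follicle-like cells, 672 and 577 in Merkel-like cells, and 366 and 294 in basal-like cells. Langerhans-like cells had 452 CPM in mouse 1 and 192 in mouse 2, the largest ratio between the mice among those of the 10 genes above 20 CPM in this class. Suprabasal-like cells had 206 and 179 CPM, T cell-like cells 132 and 104, and melanocyte-like cells 54.9 and 59.9. The mean over the mice fell to 19.4 CPM in melanocyte-like cells when called doublets were left out. The Langerhans-like and basal-like classes overlapped between the mice.

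Differences between classes were tested on UMIs summed per mouse and class, with edgeR's quasi-likelihood test and Benjamini-Hochberg adjustment over 13619 genes. The sums of 2 mice enter each class, so p-values measure the spread between these mice only. Of the 10 genes, 9 passed the filter on low counts, and Cd207 did not. Of the 9, H2-Aa, H2-Eb1 and Ciita passed only through the Langerhans-like sums, so their direction was fixed once they were tested, and their values are a description. The other 6 passed the filter without these sums too.

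Against KCs (the mean of the basal-like, suprabasal-like and hair follicle-like classes), 5 of these 6 genes (H2-Ab1, Cd74, H2-K1, H2-D1 and B2m) were higher in Langerhans-like cells and none was lower. With a threshold of 0.05 on the adjusted p, 26.1% of all genes were called higher and 29% were called lower (24.5% and 29.8% of the 13259 genes that passed the filter without the Langerhans-like sums). H2-Aa differed by 13.2 ± 0.454 on the log2 scale (SE), Cd74 by 11.9 ± 0.588 (adjusted p = 2.86e-10), H2-Eb1 by 11.2 ± 0.324 and H2-Ab1 by 9.08 ± 0.334. In mouse 1 alone and mouse 2 alone, on log2 CPM with a prior count of 2, which draws in differences from levels near 0, H2-Aa differed by 12.4 and 12.2. The smaller H2-Ab1 difference goes with its higher level in KCs. B2m differed by 5.27 ± 0.110, H2-K1 by 4.72 ± 0.120 and H2-D1 by 3.01 ± 0.0986. The class I genes thus had smaller differences than H2-Ab1, with intervals that did not overlap. The other class II chain genes passed the filter only through the Langerhans-like sums. Epcam differed by 0.15 ± 0.225 (95% interval -0.40 to 0.70, adjusted p = 0.601), and its sign turned without mouse 1 (-0.34).

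Against melanocyte-like cells, the 6 genes were all higher in Langerhans-like cells, where 22.1% of all genes were higher and 23.8% lower. Cd74 was at 0.648 and 0.852 CPM in melanocyte-like cells. H2-Aa had 3 UMIs there, H2-Eb1 1 and Ciita 1 over both mice. The ratio of levels was 6335 for H2-Aa (95% counting interval 2167 to 30727), 14104 for H2-Eb1 (2530 to 557194) and 151 for Ciita (25.8 to 6115). B2m was higher by 2.86 ± 0.152 on the log2 scale (adjusted p = 1.44e-09), H2-D1 by 2.49 ± 0.139, H2-K1 by 4.18 ± 0.178 and Epcam by 2.82 ± 0.3 (4.41 without doublets). B2m differed less here than against KCs, since melanocyte-like cells had a higher B2m level than KCs.

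The T cell-like class needs a remark first. In mouse 1, 304 of its 304 Cd74 UMIs lay in 1 of 52 barcodes, which had 26401 UMIs, 69 of Cd3g, a chain of the T cell receptor complex, and 19 of Tyrobp, and was called a doublet. The same barcode held 76 of the 77 H2-Aa UMIs, 85 of the 87 of H2-Ab1 and all 53 of H2-Eb1. In mouse 2 the T cell-like class had 1 Cd74 UMI and none of the 3 chains.

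Against T cell-like cells, 4 of the 6 genes were higher in Langerhans-like cells and 1 was lower, where 14.1% of all genes were higher and 9.88% lower. With the barcode, H2-Aa was higher by 4.65 ± 0.545 on the log2 scale, a description as stated above, and was not called with DESeq2 (adjusted p = 0.0925). Cd74 was higher by 4.83 ± 0.732 (adjusted p = 0.000209) with the barcode. Without it, the ratio of levels was 1399 for H2-Aa (95% counting interval 251 to 55287), 775 for H2-Ab1 (214 to 6399), 6028 for Cd74 (1082 to 238107) and at least 346 for H2-Eb1. Without it, the log2 differences of H2-Aa, H2-Ab1 and Cd74 were 10.8, 9.98 and 12.9. B2m was higher by 1.37 ± 0.154 (adjusted p = 1.4e-05) with the barcode and by 1.38 without. Epcam was higher by 1.73 ± 0.363 (adjusted p = 0.00269). Ciita had 44 UMIs against 1, a ratio of levels of 11.5 (95% counting interval 1.95 to 463).

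H2-D1 was lower in Langerhans-like than in T cell-like cells, by -0.57 ± 0.135 on the log2 scale (adjusted p = 0.00649). This call was lost when doublets were removed (-0.38, adjusted p = 0.0645) and without the Langerhans-like subcluster rich in keratins described below (-0.29, adjusted p = 0.136). H2-K1 differed by -0.39 ± 0.162 (95% interval -0.79 to 0.0017, adjusted p = 0.0989) and passed the test with the mouse as a block (adjusted p = 0.027).

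**Figure D2:**
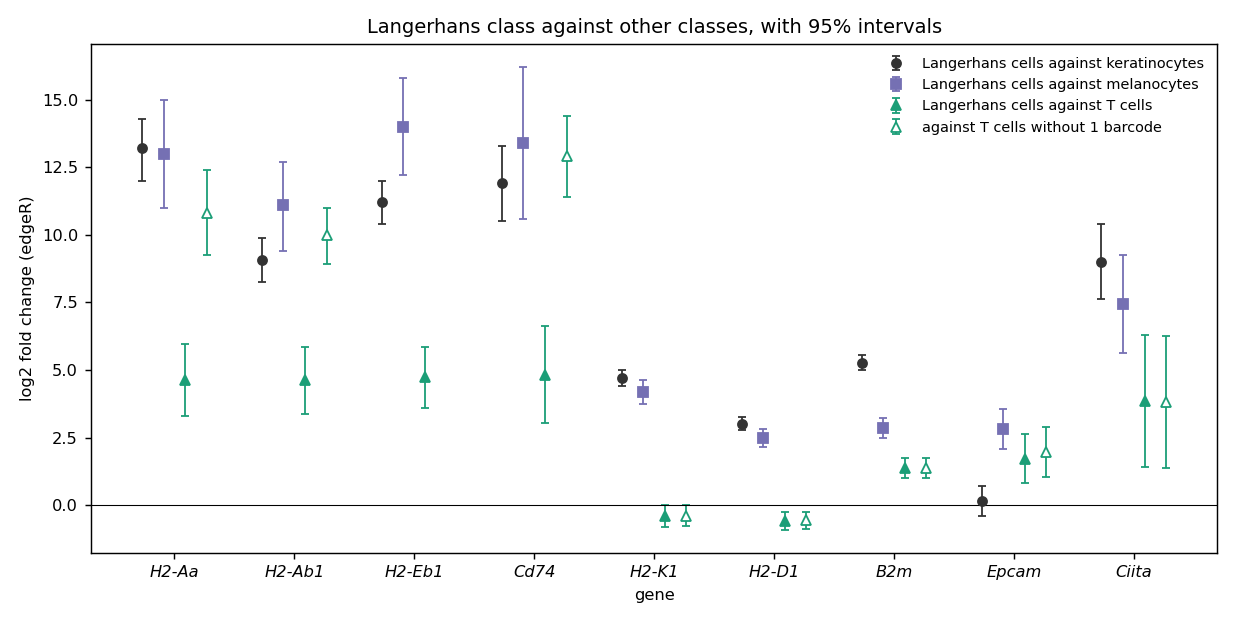
Log2 fold change (edgeR) of the 9 genes tested, in Langerhans-like cells against KCs, melanocyte-like cells and T cell-like cells, with 95% intervals from the SE and 6 residual degrees of freedom. Open triangles leave out 1 T cell-like barcode of mouse 1, without which H2-Eb1 had no UMI in the T cell-like class and is not drawn. Class II genes lie far above 0 against KCs and melanocyte-like cells. Against T cell-like cells the points of H2-K1 and H2-D1 lie below 0. The H2-K1 interval there reaches 0, and the H2-D1 call was lost without doublets.

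The level of the class II genes was far from even among Langerhans-like cells. Of the 145 cells of mouse 1, 57 (39.3%) had no UMI of H2-Aa, H2-Ab1 or H2-Eb1, and of the 193 of mouse 2, 102 (52.8%). The median cell had 9.48 and 0 UMIs of the 3 chains per 10000, while the highest cell had 407 and 340. The tenth of cells with the most UMIs of the 3 chains held 45.8% and 62% of them. Cd74 was more widespread, with no UMI in 5 and 9 cells and medians of 34.8 and 13.1 UMIs per 10000. B2m was evenly spread, with medians of 12.7 and 12.5 UMIs per 10000 and no UMI in 1 and 0 cells.

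After each cell was thinned to 2000 UMIs, 44.1% and 30.6% of Langerhans-like cells had a UMI of H2-Aa, 88.3% and 78.2% of Cd74, and 87.6% and 92.2% of B2m. Without thinning, these shares were 53.8% and 36.8%, 96.6% and 95.3%, and 99.3% and 100%. In basal-like cells, where free RNA can give such UMIs, the thinned shares were 0.124% and 0.0243% for H2-Aa and 0.331% and 0.194% for Cd74, with medians of 10550 and 10862 UMIs. Ciita was found in 2.76% and 3.11% of thinned Langerhans-like cells, and in 11.7% and 7.77% without thinning.

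The Langerhans-like cells were divided into 4 subclusters from variable genes that left out the 10 genes and the pathway lists. The subclusters come from the same cells, so their values are a description with no test. Subcluster 0 (55 and 94 cells) was led by Ms4a7, Lyz2, Sepp1, Pf4 and Cx3cr1, genes known from macrophages. Subcluster 1 (40 and 51 cells) was led by Fam189a2, Mgl2 and Hpgd. Subcluster 2 (22 and 36 cells) was led by Krt14, Krt5, Krt15 and Krt17, had medians of 18460 and 19728 UMIs, and 59.1% and 61.1% of its cells were called doublets. Subcluster 3 (28 and 12 cells) was led by Tbc1d4, Ly6a, S100a4 and Nceh1, with Cldn1 and Cdh1, genes of cell junctions, also among its 10 leading genes. H2-M5, a class I-like gene, was among these 10 as well, at 77.6 and 38.2 CPM against 0 and 0.489 in the other subclusters. No cell of subclusters 0, 1 or 3 was called a doublet.

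The class II genes rose stepwise from subcluster 0 over subcluster 1 to subcluster 3. Subclusters 0 and 3 were picked as those with the lowest and highest sum of the 3 class II chains. The order of the chain genes between them was thus set by the choice. Subcluster 2, rich in keratins and called doublets, is left out of these steps and had H2-Aa at 563 and 551 CPM. H2-Aa was at 194 and 322 CPM in subcluster 0, 2386 and 2020 in subcluster 1, and 7168 and 7197 in subcluster 3. Cd74 was at 1961 and 2207 CPM, then 10909 and 9353, then 25389 and 25009. Ciita was at 0 and 1.10 CPM, then 19.4 and 14.6, then 51.8 and 66.8. The mice did not overlap between subclusters 0, 1 and 3 for H2-Aa, Cd74 or Ciita. All 40 cells of subcluster 3 had UMIs of the 3 chains, at least 24 in mouse 1 and 61 in mouse 2.

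Epcam followed the same steps, with 9.71 and 16.4 CPM in subcluster 0, 188 and 198 in subcluster 1, and 1771 and 1565 in subcluster 3. Every cell of subcluster 3 had an Epcam UMI, against 9.09% and 14.9% in subcluster 0. All Cd207 UMIs of the class but 1 lay in subcluster 3 of mouse 1, at 18.5 CPM and in 7.14% of its cells. In subcluster 3 of mouse 2, Cd207 was not detected in 12 cells.

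Class I genes did not follow these steps. B2m was at 1460 and 1430 CPM in subcluster 0, 1358 and 1341 in subcluster 1, and 1253 and 1270 in subcluster 3. H2-K1 went from 443 and 373 CPM in subcluster 0 to 325 and 305 in subcluster 3, and H2-D1 from 724 and 699 to 710 and 582. In subcluster 2 the levels of B2m were 853 and 732 CPM, beside 2860 and 4124 CPM of Krt14.

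**Figure D3:**
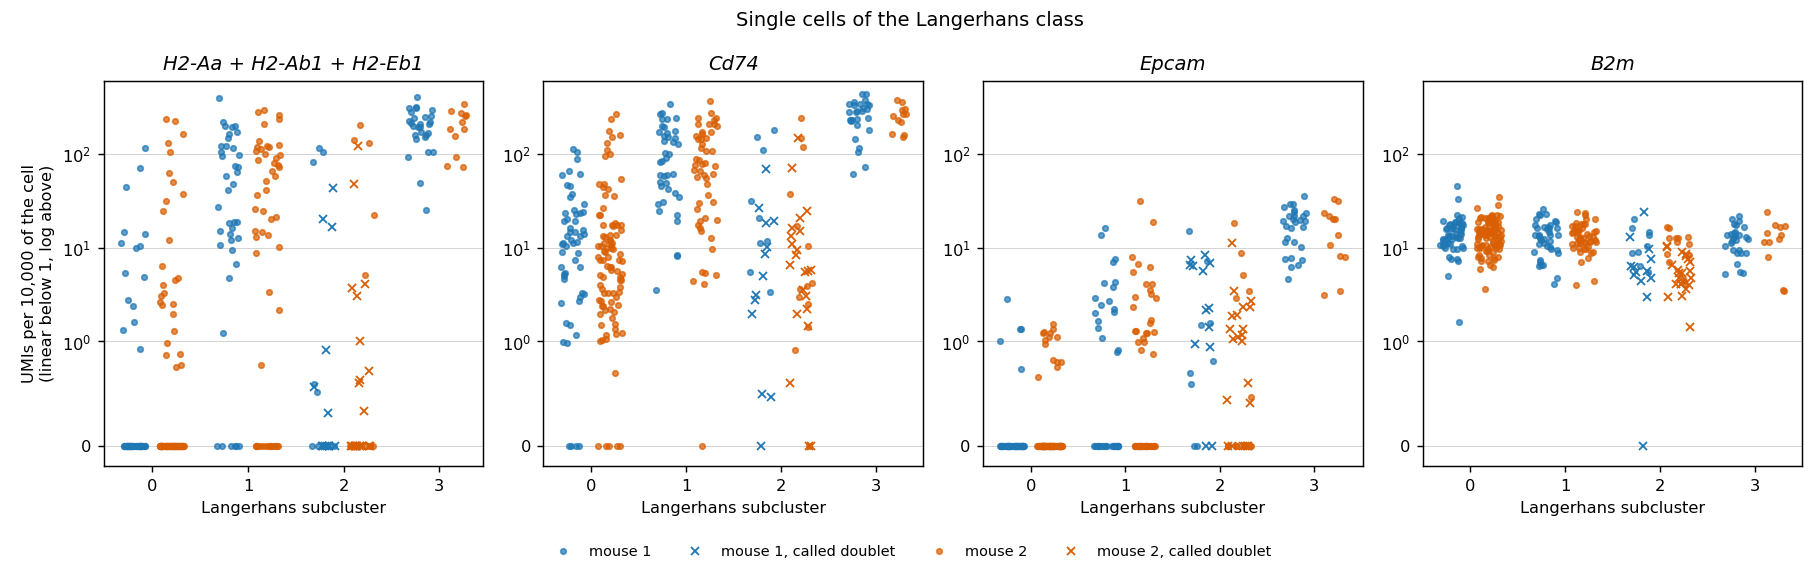
UMIs per 10000 UMIs of each Langerhans-like cell (linear below 1, log above) for the summed class II chains, Cd74, Epcam and B2m, by subcluster and mouse, with crosses for called doublets. Class II chains, Cd74 and Epcam step up from subcluster 0 over 1 to 3, and B2m does not.

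Among Langerhans-like cells, subcluster 3 made up 19.3% in mouse 1 (13.2 to 26.7, exact binomial 95% interval) and 6.22% in mouse 2 (3.25 to 10.6), and subcluster 0 made up 37.9% and 48.7%. Within subcluster 3 the mice had H2-Aa levels of 7168 and 7197 CPM, whereas over the whole class they had 1990 and 1105. Without subcluster 2, the class levels of H2-Aa were 2530 and 1347 CPM and those of Epcam 481 and 183.

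Epcam was also set against Krt14, a keratin gene of KCs, and the part of free RNA and of doublets in its level was not tested. In basal-like cells there were 0.0366 and 0.0271 Epcam UMIs per Krt14 UMI, and in melanocyte-like cells 0.0641 and 0.0469. Subcluster 0 had 0.0694 and 0.0658, and subcluster 2 had 0.131 and 0.0515. Subcluster 1 had 1.39 and 1.07, and subcluster 3 had 13.7 and 7.45. In hair follicle-like cells, the KCs with the most Epcam, the ratio was 0.221 and 0.151. These ratios depended on the keratin. Per UMI of Krt10, a suprabasal keratin gene, subcluster 0 had 0.0191 and 0.0177 and melanocyte-like cells 0.119 and 0.0776. Per Krt5 UMI they had 0.156 and 0.149, and 0.12 and 0.0918. Subcluster 3 had 3.55 and 1.71 per Krt10 UMI, where hair follicle-like cells had 1.55 and 0.607. Per Krt5 UMI these were 21.8 and 18.2, and 0.741 and 0.39.

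The pathway lists were compared in the same way across subclusters 3 and 0, picked for the highest and lowest sum of the class II chains. Genes entered with a mean of at least 10 CPM over these subclusters and both mice. A gene with a mean below 10 CPM in either subcluster alone entered only through the other, so the direction of its mean was fixed. Among the list genes, Mertk, Stab1, Fcgr1 and Irf1 entered only through subcluster 0, and H2-Oa and Cd24a only through subcluster 3. Higher and lower were read from the sign in each mouse alone, whatever the size of the difference. Subcluster 3 of mouse 2 had 104764 UMIs in 12 cells, so low levels there rest on few UMIs. Over all 6816 such genes, the median log2 difference was 0.0547, with 2345 higher and 1756 lower in subcluster 3 in both mice. Of 9 macrophage-type precursor genes, all 9 were lower in both mice, with a median of -4.55. This median is the value of Stab1, and Mertk, Stab1 and Fcgr1 could only come out lower on the mean. Apoe, a lipid carrier of macrophages, went from 11495 and 12630 CPM to 569 and 248, and Trem2, a lipid receptor, from 474 and 613 to 25.9 and 0. Of 8 genes of class II proteolysis, 7 were lower in both mice, with a median of -2.22. Among them Ctss, the protease that trims the invariant chain, went from 2630 and 2676 CPM to 1664 and 1394. Of 9 Langerhans identity genes, members aside, 6 were higher and 3 lower, with a median of 1.12. The higher ones include Cd24a, from 5.83 and 6.57 to 11.1 and 19.1 CPM, which entered only through subcluster 3. Id2, a regulator that Langerhans cells need, went from 223 and 199 to 906 and 764 CPM, and Runx3 from 128 and 128 to 311 and 248. The 3 lower ones were Sirpa, Tgfbr1 and Tgfbr2. Sirpa went from 384.5 and 294.8 to 218.1 and 105 CPM, and Tgfbr1 from 306.8 and 360.5 to 214.4 and 334.1. Tgfbr2 went from 31.07 and 13.15 to 18.48 and 9.545 CPM. Of 4 genes of class II molecules and loading, members aside, 3 were higher and none lower, with a median of 2.01. The higher ones include H2-Oa, from 7.77 and 9.86 to 44.4 and 57.3 CPM, which entered only through subcluster 3. H2-DMb1 went from 50.5 and 94.2 to 1013 and 1079 CPM. Of 6 class II regulators, members aside, 1 was higher and 5 lower, with a median of -0.37. The member Ciita, not counted here, went the other way, from 0 and 1.10 to 51.8 and 66.8 CPM. Among the lower ones, Irf8 went from 246.6 and 259.7 to 59.15 and 85.91 CPM. Spi1 went from 600.1 and 569.8 to 454.7 and 544.1 CPM. The higher one was Nfyb, from 11.65 and 24.11 to 29.57 and 38.18 CPM.

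In none of the other lists were more genes higher than lower in subcluster 3. Of 9 genes of interferon signalling, 2 were higher and 6 lower, with a median of -0.54, and of 11 genes of class I loading and peptide supply, 1 was higher and 7 lower, with a median of -0.215. Of 3 genes of dendritic maturation and migration, none was higher and 1 lower, with a median of -0.13. Among them Cd86, a costimulatory ligand, was at 155 and 133 CPM in subcluster 0 and 163 and 105 in subcluster 3, and Cd83 was at 25.2 and 28.5 CPM and then at 14.8 and 19.1. Of 3 other class I and class I-like genes 1 was higher and 1 lower, and so it was for 2 division genes.

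The rest of the class II pathway and the other lists were tested over whole classes. For the counts against KCs that follow, 26.1% of all genes were called higher and 29% lower. Among genes that passed the filter without the Langerhans-like sums, these shares were 24.5% and 29.8%. Of 6 genes of class II molecules and loading, members aside, 4 were tested, and 3 of these (H2-DMb1, H2-DMb2 and H2-Oa) passed the filter only through the Langerhans-like sums. H2-DMa, a chain of the peptide exchanger, was at 714 and 529 CPM and was higher than in KCs by 8.5 ± 0.126 (adjusted p = 4.88e-16). H2-DMb1 was at 328 and 201 CPM in Langerhans-like cells and between 0.444 and 0.884 CPM in the KC classes. H2-Oa, which makes part of an inhibitor of H2-DM, was at 17.1 and 14.9 CPM. H2-Eb2 was at 0 in both mice.

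Of 9 regulators of class II, members aside, 8 passed the filter without the Langerhans-like sums. Of these 8, 2 were higher and 2 lower, close to the 24.5% and 29.8% of all genes that passed so. The median over the 9 was 0.12 against -0.20 over all genes. The higher ones included Spi1, the myeloid factor PU.1, at 481 and 464 CPM (11.3 ± 0.156, 13.1 at 5% mitochondrial UMIs and 10.4 in mouse 1 alone). Irf8, which passed the filter only through the Langerhans-like sums, was at 159 and 191 CPM (10.9 ± 0.249, and 9.3 and 10.2 in mouse 1 and mouse 2 alone). Rfxank, a subunit of RFX, differed by 1.6 ± 0.391 (adjusted p = 0.00298) at 3.80 and 5.58 CPM, and Nfyb, a subunit of NF-Y, by -0.87 ± 0.128 (adjusted p = 4.21e-05). Of 8 proteases and helpers of class II proteolysis, 6 were higher and none lower, with a median of 3.96. Ctss was at 2055 and 2108 CPM (12.1 ± 0.193, and 11.4 in mouse 1 alone), and Ifi30, a thiol reductase of the endosome, at 623 and 653 CPM (4.49 ± 0.0991).

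Of 14 genes of class I loading and peptide supply, 13 passed the filter without the Langerhans-like sums, and Nlrc5 did not. Of the 13, 10 were higher in Langerhans-like cells than in KCs and 1 lower. The median over the 14 was 1.76. The immunoproteasome subunit genes Psmb8 and Psmb9 differed by 6.17 ± 0.119 and 5.94 ± 0.214. Against T cell-like cells 2 of the 13 were higher and none lower. Of all genes that passed without the Langerhans-like sums, 13.1% were higher and 10.2% lower there, so the higher ones were near that share. The median over the 14 was 0.0653, and Psmb8 differed by 0.16 ± 0.154 (adjusted p = 0.519). Of 9 other class I and class I-like genes, 7 were tested and 4 were higher than in KCs. H2-M3 was among them (7.9 ± 0.431, and 6.7 in mouse 2 alone). H2-Q7, with 2 UMIs in each mouse, was also called (4.45 ± 1.32, adjusted p = 0.0105), a call lost without subcluster 2 (adjusted p = 0.0727). Of 9 genes of interferon signalling, 8 were higher than in KCs and none lower, with a median of 2.11. Ifngr1, a chain of the interferon gamma receptor, was at 187 and 195 CPM (2.69 ± 0.172).

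Of 12 genes of dendritic maturation and migration, 7 were tested, and 6 of these passed the filter without the Langerhans-like sums. Of these 6, 3 were higher and 3 lower than in KCs. The median over the 7 was 0.89. The 5 that did not pass the filter included Ccr7, the receptor that guides dendritic cells to lymph nodes, with no UMI in Langerhans-like cells. Cd86, which passed only through the Langerhans-like sums, was at 140 and 95.3 CPM with 3 UMIs or fewer in each KC class, and Cd83 was at 20.9 and 22.3 CPM (7.15 ± 0.344, and 6.2 and 6.22 in mouse 1 and mouse 2 alone). Cacnb3, a calcium channel subunit gene, was lower, at 8.22 and 5.12 CPM (-1.92 ± 0.255, adjusted p = 1.62e-05, and -3.25 without the keratin-rich subcluster). Of 12 Langerhans identity genes, members aside, 3 passed the filter only through the Langerhans-like sums, among them Itgax, at 29.1 and 27.9 CPM. Of the other 9, 6 were higher and 1 lower, among the higher ones Runx3 (8.07 ± 0.154, and 7.44 in mouse 2 alone). Runx3 was at 169 and 138 CPM in Langerhans-like cells, 281 and 288 in T cell-like cells and 179 and 199 in melanocyte-like cells. Of 12 macrophage-type precursor genes, 10 were tested, and 5 of these passed the filter only through the Langerhans-like sums, among them Trem2, at 256 and 349 CPM. The other 5 were higher than in KCs, among them Fcgr3, at 318 and 356 CPM. Of 8 division genes, none was higher and 5 were lower than in KCs, with a median of -0.61, led by Mcm5 (-0.996 ± 0.203) and Top2a (-0.97 ± 0.161). Without that subcluster these were -2.2 and -3.37, and without doublets Mcm5 was at -1.88. The KC classes differed among themselves in division genes. Top2a was at 50.6 and 61.4 CPM in the whole Langerhans-like class. It was at 260.7 and 252.4 CPM in basal-like, 209.5 and 250 in hair follicle-like and only 32.3 and 43.1 in suprabasal-like cells. In subclusters 0, 1 and 3 it was at 14.8 CPM or less.

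Among the 3 named KC classes, class I heavy chains were lowest in basal-like cells. Against basal-like cells, 2 of the 9 genes were higher in suprabasal-like cells and 1 was lower, where 22.8% of all genes were higher and 25.7% lower. The count of higher genes was thus near the share over all genes. The 9 include H2-Aa, H2-Eb1 and Ciita, which passed the filter only through the Langerhans-like sums. These had few UMIs in KCs and could hardly be called here. H2-K1 was at 19.2 and 18.4 CPM and differed by 1.95 ± 0.177 (adjusted p = 5.2e-07), and H2-D1 was at 90.9 and 89.5 CPM and differed by 0.47 ± 0.13 (adjusted p = 0.00775). B2m was at 29.7 and 24 CPM against 45.4 and 37.6 and differed by -0.44 ± 0.152 (adjusted p = 0.0281), a call lost when cells were limited to 5% mitochondrial UMIs (adjusted p = 0.182). Epcam differed by -0.58 ± 0.260 (95% interval -1.22 to 0.0532, adjusted p = 0.0797), and passed with the mouse as a block (adjusted p = 0.00397).

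In hair follicle-like cells, 4 of the 9 genes were higher than in basal-like cells and none was lower, where 15.3% of all genes were higher and 16% lower. H2-Aa, H2-Eb1 and Ciita, with few UMIs in KCs, are among the 9 here too. H2-K1 was at 36.0 and 28.8 CPM and differed by 2.43 ± 0.168 (adjusted p = 1.23e-07), and H2-D1 was at 126 and 114 CPM and differed by 0.58 ± 0.129 (adjusted p = 0.00304). Epcam differed by 0.76 ± 0.259 (adjusted p = 0.0375), a call lost when doublets were removed (0.79, adjusted p = 0.0549), at 5% mitochondrial UMIs (0.515, adjusted p = 0.365) and with DESeq2 (0.78, adjusted p = 0.0602). H2-Ab1 was at 12.2 and 14.1 CPM against 2.66 and 2.49 and differed by 2.26 ± 0.478 (adjusted p = 0.00222, and 3.12 at a resolution of 1.2), a call lost with DESeq2 (2.27, adjusted p = 0.211). Cd74 was at 4.23 and 4.83 CPM and differed by 1.81 ± 0.916 (adjusted p = 0.155). It passed with the mouse as a block (adjusted p = 0.0415), without doublets (adjusted p = 0.00198) and without the T cell-like barcode, which shares the fit (adjusted p = 0.00258).

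H2-Ab1 in KCs stood apart from the other class II chains. Hair follicle-like cells had 199 and 333 H2-Ab1 UMIs beside 0 and 3 of H2-Aa, whereas Langerhans-like cells had 1.08 and 1.14 H2-Ab1 UMIs per H2-Aa UMI. The ratio was 5.85 and 17.7 in basal-like cells. In thinned hair follicle-like cells, 2.39% and 3.26% had a UMI of H2-Ab1, against 0.29% and 0.413% of basal-like cells, and none of 1086 and 1593 cells had one of H2-Aa, which allows shares of up to 0.276% and 0.188%. Without thinning, 14.2% and 13.9% of hair follicle-like cells had an H2-Ab1 UMI.

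Among the 16 KC clusters, H2-Ab1 was highest in hair follicle-like cluster 10, at 25.5 and 30.4 CPM (136 and 283 UMIs, with no H2-Aa UMI in either mouse), a cluster led by Krt28, Krt35, Mt4 and Cldn10. The unnamed KC clusters 14 and 0 followed with 19.9 and 14.4 CPM, and 12.6 and 11.4 CPM. Cluster 0 was led by Sfrp1, Tbx1 and Lgr5. Among these clusters H2-K1 was highest in another follicle-like cluster, 13, at 59.7 and 55.2 CPM, where Epcam was highest too, at 1251 and 927 CPM. That cluster was led by Krt79, Krt75 and Bbox1. B2m was highest among the KC clusters in the unnamed cluster 8, at 82.9 and 68.5 CPM, and in the Shh-led follicle-like cluster 7, at 66.3 and 69.8 CPM, where Cd74 was at 10.8 and 10.3 CPM.

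**Figure D4:**
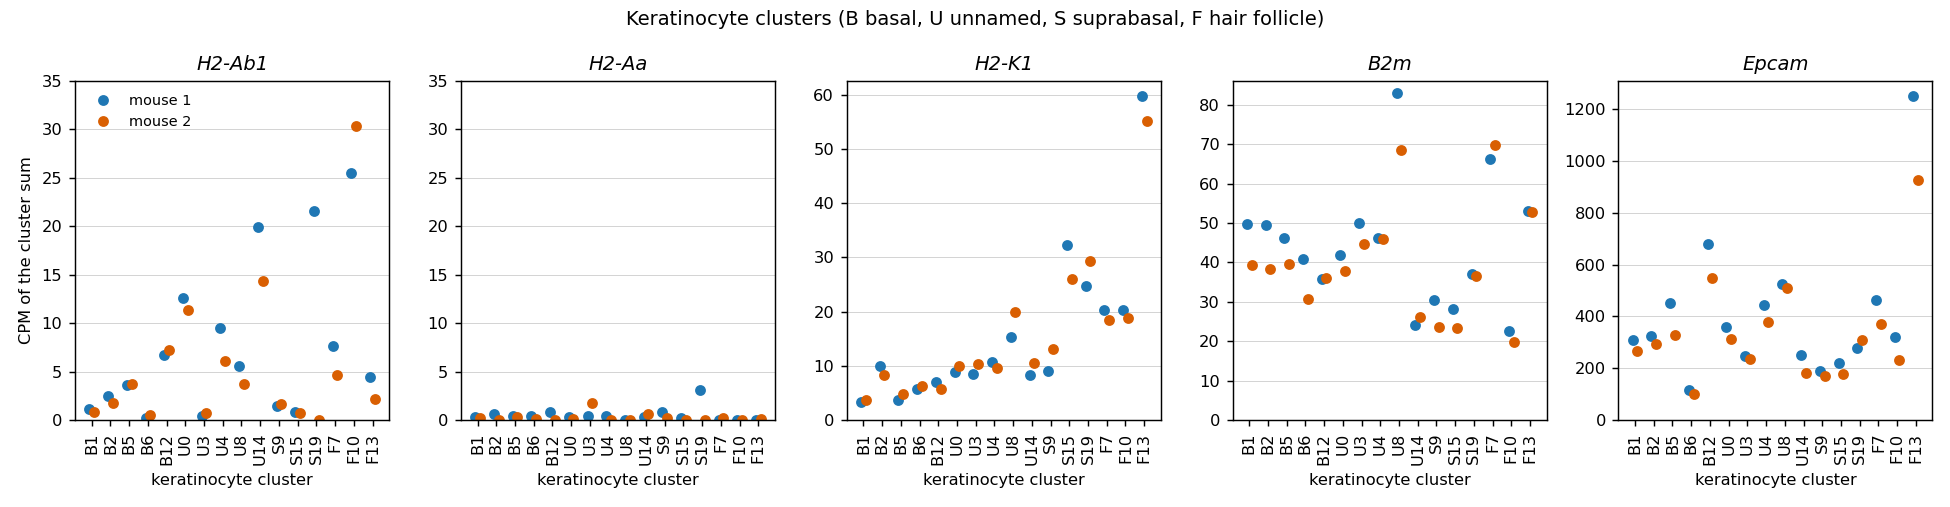
CPM of the cluster sum of 5 genes in the 16 KC clusters (B basal-like, U unnamed, S suprabasal-like, F hair follicle-like), 1 point per mouse. H2-Ab1 peaks in cluster F10 while H2-Aa stays near 0 in both mice, and H2-K1 and Epcam peak in cluster F13.

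Over the 12 sums of the fit, the genes whose log2 CPM was most like that of Cd74 included H2-Eb1 (Pearson r = 0.9935), Ak8, Il21r and H2-Aa (r = 0.9889). For H2-K1 they were H2-D1 (r = 0.9804), Gch1, Stk17b, Arl6ip5 and Ier5. For Epcam they were Phf21a (r = 0.9638), Tmem44, Cebpg, Acer3 and Cd164l2. Cd207 was not among the genes tested. The points share mice, libraries and classes, so these values only describe the levels.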

How the data were processed

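Each of the 2 libraries held UMI counts per gene and cell barcode, deposited by the authors as whole-number counts with no normalization. According to the submitters' processing notes they were made with Cell Ranger 3.0.2 on the mm10 build. Following the study's methods, barcodes with fewer than 900 or more than 7700 genes, or with 10% of mitochondrial UMIs or more, were removed, which left 70.3% and 74.9% of the barcodes and 95048258 and 148843409 UMIs. The deposited files were used without annotation of cells, so classes were rebuilt with Seurat 5.3.0 (R 4.3.3), using 2000 variable genes, 30 dimensions and a resolution of 0.8, with the 109 genes of the lists left out of the variable genes. Clusters were named from marker lists, with limits set after the clusters were seen. Doublets were called with Scrublet in scanpy 1.11.5 at a score of 0.2 (188 and 500 cells) and were kept, except where stated.

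UMIs were summed per mouse and class, and 12 sums of 6 classes were fitted with edgeR 4.0.16 (TMM, filterByExpr, quasi-likelihood test, Benjamini-Hochberg adjustment, threshold 0.05), with no block. The filter asks for the level of 10 counts in a median sum (1.03 CPM) in 2 sums. The replicate number of the labels stands for an animal, which pairs the sums of different classes. The deviations of the classes from their means correlated between 0.00512 and 0.407 over 15 pairs of classes (median 0.113). Levels carry exact Poisson intervals and shares exact binomial ones at 95%, which cover counting error only, and a count of 0 was read as up to 3 counts. Shares of cells were taken after thinning to 2000 UMIs. The fits were tested on simulated data.

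The members and the lists were chosen with earlier results of these data known. The text names the 10 members and, from each list, at most 4 genes with the largest absolute fold change against KCs among those called. H2-Eb2 and Ccr7 were named after their values were seen. Some genes that this rule names are not reported here. In the comparison of subclusters, genes of the lists and leading genes were chosen after their values were seen. Alternatives were size factors and the test of DESeq2 1.42.0, no filter on low counts, a block for the mouse, the classes without doublets, a mitochondrial limit of 5%, a resolution of 1.2, thinning to 1000 UMIs or none, and each mouse left out. Leaving out the keratin-rich subcluster and 1 T cell-like barcode was added after seeing the data. Python 3.11.15, scipy 1.17.1 and matplotlib 3.10.9 were used.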

Additional observations from a re-analysis of the deposited data

Results flagged for a closer look

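The barcodes that the filter removed (3209 in mouse 1 and 3986 in mouse 2) enter none of the comparisons, and they held UMIs of the 10 genes. The summed level of the genes was 611 CPM of the removed UMIs in mouse 1 and 489 in mouse 2, against 853 and 610 CPM in the kept cells, and above the 0.204 and 0.17 CPM that a count of 0 allows. Epcam gave 327 and 289 CPM of these sums. Cd74 was at 55.3 and 15 CPM in the removed barcodes, against 143 and 74.1 CPM in the kept cells.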

How the results depend on the processing

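Of the log2 fold changes of named genes under the alternatives, 743 stayed the same, 9 lost the call and 8 gained it. Staying the same meant no reversal and the same side of the threshold. Where 1 mouse was left out and no test was run, it meant no reversal and a move within the spread. A further 64 moved by more than their spread with no test, and 12 reversed. The reversed values were all of differences that did not pass the test. Those of Epcam in Langerhans-like cells against KCs were -0.15 at a mitochondrial limit of 5% and -0.34 without mouse 1 (0.46 without mouse 2). Between suprabasal-like and basal-like cells they were 0.32 for H2-Ab1 and -0.0587 for H2-Eb1 at a resolution of 1.2, -0.29 for H2-Eb1 and -0.39 for Cd74 at the 5% limit, and -1.03 for Cd74 without mouse 1 (1.37 without mouse 2). Between hair follicle-like and basal-like cells they were -0.96 for H2-Eb1 and -0.13 for B2m at the 5% limit, -0.25 and -0.0663 at the resolution of 1.2, and -0.0626 for B2m without mouse 2 (0.16 without mouse 1). The number of genes called between hair follicle-like and basal-like cells was 4250, and 2187 at the 5% limit; the cause was not tested. All 38 other counts of genes stayed within 1.5 times. DESeq2's size factors moved the median log2 fold change of all genes against KCs by 0.11.

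The mouse as a replicate block gave 7774, 3492, 6585, 7551 and 5702 called genes for Langerhans-like cells against KCs, T cell-like and melanocyte-like cells, and for suprabasal-like and hair follicle-like against basal-like cells, where the fit without the block gave 7503, 3264, 6252, 6604 and 4250. Among the members it gained the calls of H2-K1 against T cell-like cells, Epcam in suprabasal-like and Cd74 in hair follicle-like cells, and changed no other. With no filter on low counts, these 3 were gained too, and H2-Ab1 in suprabasal-like cells (-0.59, adjusted p = 0.0408, with the unfiltered edgeR fit). Without 1 mouse, no test was run, since the 6 sums left have no residual degrees of freedom.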
